A study of Mus musculus with 63 samples.

Results

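Keratinocytes without the epidermal growth factor receptor (KO) were compared with keratinocytes that carry it (WT), after both had been transduced with the v-rasHa oncogene and exposed to AG1478, an inhibitor of the receptor's tyrosine kinase. The members are the arrays whose titles name ras and AG1478, 6 for KO and 5 for WT, which is 11 of the 63 arrays of the series. The cells came from the skin of newborn CD-1 mice, and the knockout is total, not restricted to a cell type. All 11 cultures received v-rasHa in virus-containing medium from Psi-2 producer cells, were kept for 4 days and then took 1 µM AG1478 for 2 h, so the genotype is what the labels give as different. Each array set 1 sample against universal mouse reference RNA, a pool from 11 mouse cell lines, in the other dye. Other arrays of the series hold KO and WT cells with ras and no inhibitor (5 KO, 5 WT), with ras and erlotinib (4 KO, 5 WT) and with ras and PD153035 (5 KO, 5 WT), each inhibitor at 1 µM for 2 h.

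EGFR is a receptor tyrosine kinase that keratinocytes stimulate themselves through, by shedding ligands such as TGF-alpha, amphiregulin and HB-EGF. Its activity feeds the RAS, RAF, MEK and ERK cascade and the PI3K pathway, and in the epidermis it is known to favour proliferation and survival over differentiation. Oncogenic RAS acts below the receptor but induces EGFR ligands, and immediate early genes such as *Egr1* respond to the ERK cascade within minutes. A kinase inhibitor given for a short time removes the receptor's activity, while a knockout removes the protein for the whole life of the cell. The comparison thus sets WT cells whose receptor was exposed to the inhibitor against KO cells that have no EGFR for AG1478 to act on.

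Values are log2 ratios of sample over reference, so 0 means the same signal as the pool, and the log base is assumed from the spread of the deposited values. An array was turned when it correlated negatively with the median taken over the forward-labelled arrays. For 2 KO arrays the turn went against the dye label. Replicate 3 is labelled forward and correlated −0.83 with that median, and replicate 4 is labelled reversed and correlated 0.805. On all 63 arrays, after turning, 19 keratinocyte genes lay above 19 genes of the reference pool, and the gap was 4.60 on KO replicate 3 and 5.28 on KO replicate 4, against 2.86 to 6.04 over the 11 arrays. That gap rests on the same values as the turn, so it is no separate check of these 2 arrays. WT replicate 3 stood apart in another way. Its correlation with the forward median was 0.559, the weakest of the 11. Pairs of WT arrays correlated at 0.496 to 0.879, whereas pairs of KO arrays correlated at 0.695 to 0.827. The experiment numbers in the labels fall into runs, whose meaning is not given. All 6 KO arrays and WT replicates 3 and 4 lie in run 8, and WT replicates 1, 2 and 5 lie in run 7, so most of the WT group was not run beside the KO group. The design text calls the samples biological replicates and nothing says they came from separate cultures or litters, so the p-values rest on how these samples vary, and that variation may be technical.

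In KO cells the kallikrein *Klk6*, the differentiation keratins *Krt78* and *Krt80*, the surface antigen *Psca* and the simple-epithelium keratins *Krt7* and *Krt23* were lower, and 4 genes of sterol and fatty acid synthesis were lower with them. The protease inhibitor *Serpinb3a*, the Wnt and BMP antagonist *Sostdc1* and the receptor *Notch1* were higher in KO cells. *Egr1*, which was far lower in KO than in WT ras cells without inhibitor, was not called here. Across 27750 probes, limma with Benjamini-Hochberg adjustment called 612 at an adjusted p under 0.05, which is 2.21% of those tested. Of these, 226 were higher in KO cells (0.814%) and 386 were lower (1.39%). With 1 probe per gene, 106 of 14443 genes were called higher (0.734%) and 243 lower (1.68%). Groups that did not overlap had KO above WT in 1.25% of genes and KO below WT in 1.62% (1.2% and 1.5% of probes).

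The counts depended on which arrays were set against each other. Without KO replicates 3 and 4, 291 probes were called, and 257 of them were among the 612. Without WT replicate 3, 896 were called. Against the 2 WT arrays of run 8 alone, 385 probes were called and 135 were shared with the 612, while 582 of the 588 that could be tested there kept their sign. With run as a random block 279 were called, 238 of them shared. The 57 called genes named below for their size or as list members, 22 higher and 35 lower, kept their sign without KO replicates 3 and 4, where 35 passed. In run 8 alone 54 could be tested, all with the same sign, and 11 passed: *Bzw2*, *Ovch2*, *Notch1*, *Filip1l*, *Dact2*, *S100a10*, *Serpina3f* and *Dsg1a* higher, and *Ndrg1*, *Dlx1* and *Hsd11b1* lower. Fits on fewer arrays reuse the arrays that made the calls, and in 39 of the 57 genes the groups did not overlap. A kept sign was therefore largely fixed in advance and is no separate support, for the 582 probes as well. When signs and dye order followed the labels, 6 of the 57 changed sign: *Bzw2*, *Filip1l*, *S100a10*, *Serpina3f*, *Dsg1a* and *Itga6*. Of the 57, 28 passed in each of the 11 fits that left out 1 sample, whereas *Pfkfb3* passed in 0 of them and *Plaur* in 1.

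**Figure D1:**
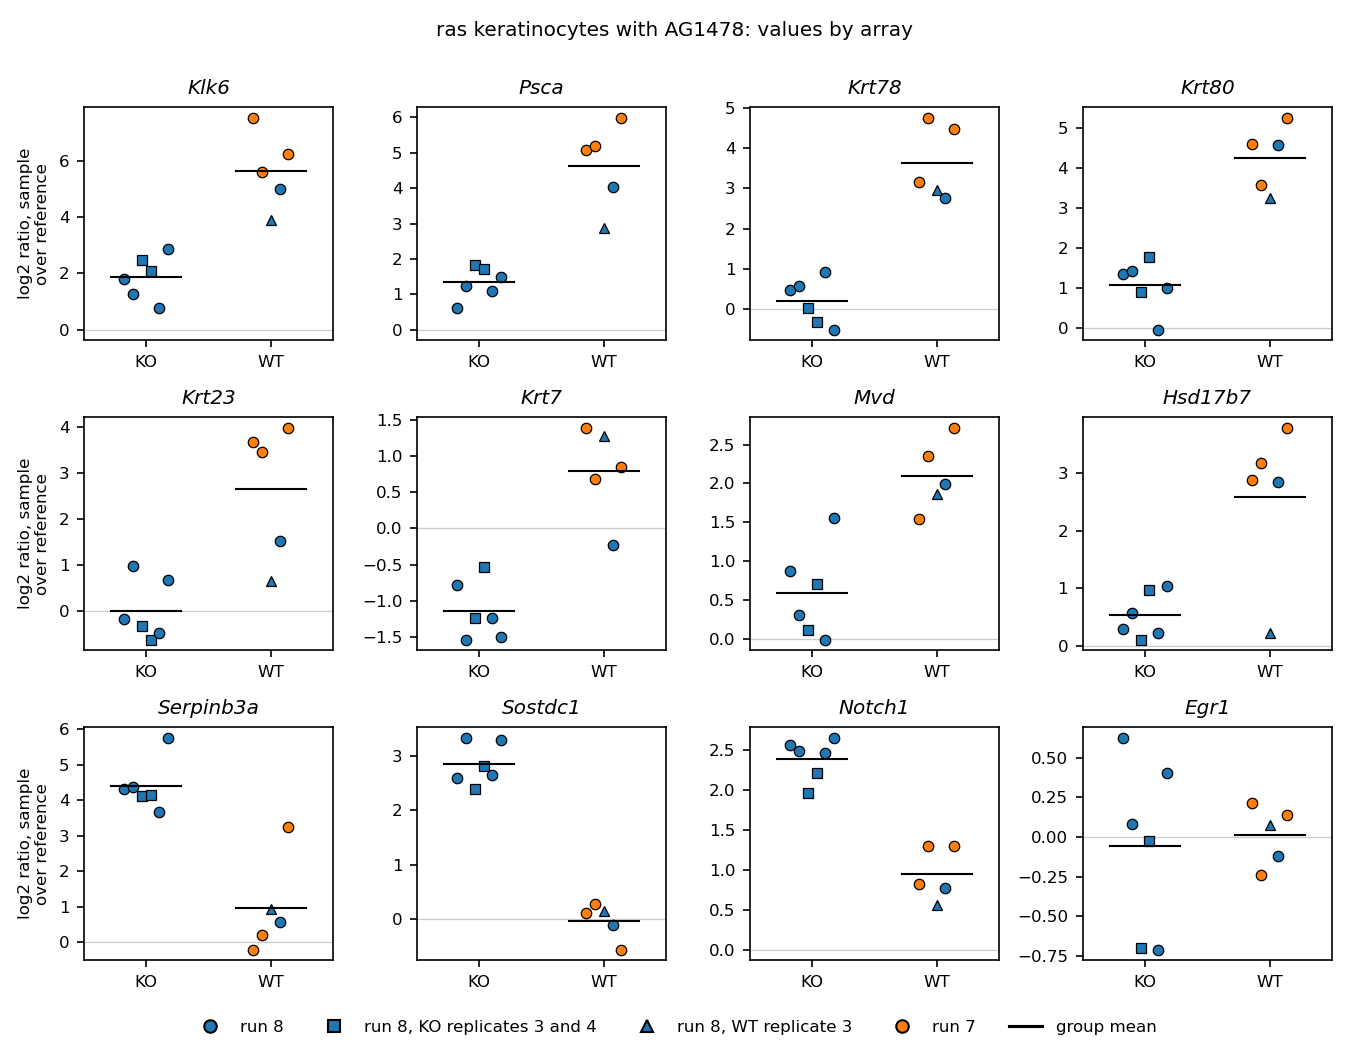
Log2 ratio of sample over reference for 12 genes on the 6 KO arrays (left) and the 5 WT arrays (right) of ras cells with AG1478. Colour gives the run, squares mark KO replicates 3 and 4, the triangle marks WT replicate 3, and bars are group means. KO and WT values are apart in panels such as *Klk6*, *Sostdc1* and *Notch1*, whereas *Egr1* values surround 0 in both groups.

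The targeted gene was examined first. *Egfr* ratios in KO cells ran from 0.224 over a median of 1.45 to 1.77, against 2.35, 1.69, 0.75, 1.52 and 3.03 in WT replicates 1 to 5. The groups overlapped, and the difference of −0.58 ± 0.38 (SE; 95% interval −1.35 to 0.186) did not pass (adjusted p = 0.488 by limma). A second *Egfr* probe gave −0.62. The labels do not say which part of the gene is deleted and the files do not place the probes, so these probes do not check the genotype. The co-receptors *Erbb2*, which has no known ligand, and *Erbb3*, which signals mainly through its partners, differed by 0.28 ± 0.34 (95% interval −0.4 to 0.959) and by 0.21 ± 0.37 (95% interval −0.536 to 0.964). None of the 5 ErbB list members and none of the 6 EGF family ligands tested was called. Among the ligands *Tgfa* had the largest difference, −1.14 ± 0.49 (adjusted p = 0.235), with 1.02 to 2.72 and a median of 1.66 in KO cells, against 2.43, 2.74, 2.32, 2.67 and 3.98 in WT cells. *Hbegf* followed at −0.57 ± 0.53 (adjusted p = 0.643), and within run 8 its difference was 0.47, the other way.

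Immediate early genes respond to growth factors without new protein synthesis, and many of them encode transcription factors. The list held no called member among 23 tested. The median difference of the 23 was −0.19, beside −0.0562 for all genes, and 8 of 23 were positive, where 45.7% of all genes were. *Egr1* ratios were 0.627, 0.082, −0.697, −0.028, −0.711 and 0.405 in KO replicates 1 to 6, against 0.214, −0.241, 0.077, −0.119 and 0.14 in WT replicates 1 to 5. The KO values surrounded the WT values, and the difference was −0.07 ± 0.28 (adjusted p = 0.935, 95% interval −0.63 to 0.487). *Fosl1*, which encodes the AP-1 subunit FRA-1, had the largest difference of the list at −1.78 ± 0.70 (adjusted p = 0.182). *Fos* stood at −0.99 ± 0.59 (adjusted p = 0.433), and its 5 WT values spanned −1.58 in replicate 4 to 1.82 in replicate 5.

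Genes that ERK activity induces, among them the *Dusp* and *Spry* genes that restrain it and the ETS factors *Etv4* and *Etv5*, gave no called member among 13, with a median of −0.42 and 4 positive. *Etv4* differed by −1.503 ± 0.49 (adjusted p = 0.0913), and the cytokine *Il24*, also listed there, by −1.21 ± 0.77 (adjusted p = 0.474). *Dusp4*, a nuclear phosphatase of ERK, was read by 3 probes that were all lower in KO cells. The probe taken by the rule gave −1.07 (adjusted p = 0.143). A second probe, named after its values were seen, ran from −0.059 over a median of 0.653 to 1.24 in KO cells, against 3.44, 3.85, 1.19, 2.69 and 3.97 in WT cells. That probe fell by 2.42 ± 0.44 on the log2 scale (adjusted p = 0.000861), and the groups met only at WT replicate 3.

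The genes of the suprabasal layers and the cornified envelope, which form the barrier of the outer epidermis, held 1 higher and 2 lower calls among 31 tested. Their median was −1.13, and 26 of 31 differences were negative. The sign of the median depended on the run of the WT arrays. Against the 3 WT arrays of run 7 the median was −1.78 with 8 lower calls, whereas against the 2 WT arrays of run 8 it was 0.153 with 1 higher call and 17 of 31 members positive. Without KO replicates 3 and 4 it was −0.896. *Klk6*, a trypsin-like protease of differentiating epidermis, ran from 0.781 over a median of 1.95 to 2.86 in KO cells, against 7.53, 5.61, 3.91, 4.98 and 6.22 in WT cells. No KO value reached the lowest WT value, and *Klk6* fell by 3.79 ± 0.81 (adjusted p = 0.00519). In run 8 alone the difference was −2.75 and did not pass (adjusted p = 0.224).

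*Lce1m*, a late cornified envelope protein, was lower by the fit, with KO values of −0.226 to 0.666 (median 0.276), against 3.24, 3.11, −0.962, 2.30 and 2.97 in WT cells. WT replicate 3 lay below every KO array, and within run 8 the difference was −0.27. *Lce1e*, a relative outside the list, had KO values from −0.59 over 0.605 to 2.13, against 3.78, 4.06, 2.30, 3.63 and 3.93 in WT cells, without overlap, and fell by 2.86 ± 0.59 (adjusted p = 0.00353). The desmosomal cadherin *Dsg1a* went the other way. Its KO values lay between 3.72 and 5.82 with a median of 5.29, against 0.835, 4.18, 0.687, −0.086 and 5.15 in WT cells. *Dsg1a* rose by 2.90 ± 0.82 (adjusted p = 0.0436), and by 4.61 in run 8 alone (adjusted p = 0.0133), where both WT arrays were low.

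*Krt1* and *Krt10* pair to form the filaments of the spinous layer. *Krt1* differed by −0.23 (adjusted p = 0.908). The *Krt10* probe taken by the rule differed by 0.22 (adjusted p = 0.866), but a second one, named after its values were seen, gave 2.65 to 4.24 in KO cells (median 3.25), against 0.407, 0.082, 0.718 and 0.264 in WT replicates 1, 2, 4 and 5. That probe rose by 2.93 ± 0.58 (adjusted p = 0.00243), so the 2 probes for *Krt10* do not give the same result.

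*Krt78* and *Krt80*, keratins of differentiating stratified epithelia that stand outside the lists, were among the largest differences. *Krt78* ran from −0.509 over a median of 0.26 to 0.932 in KO cells, against 3.15, 4.75, 2.95, 2.77 and 4.46 in WT cells, and fell by 3.42 ± 0.57 (adjusted p = 0.000387). *Krt80* ran from −0.049 over 1.17 to 1.78 in KO cells, against 4.61, 3.59, 3.25, 4.59 and 5.27 in WT cells, and fell by 3.19 ± 0.71 (adjusted p = 0.00739). In both genes the WT arrays of run 8 stood with the other WT arrays, above every KO array, and the differences within run 8 were −2.66 and −2.83 (adjusted p = 0.0617 and 0.134).

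Keratins of simple and of stressed or wounded epithelium held 3 lower calls among 11, a median of −0.919 and 10 negative differences. The median was −1.17 without KO replicates 3 and 4 and −0.734 in run 8 alone. *Krt7*, a keratin of simple epithelia, ran from −1.54 over −1.24 to −0.533 in KO cells, against 1.39, 0.68, 1.27, −0.23 and 0.852 in WT cells. Every KO value lay below every WT value, and *Krt7* fell by 1.94 ± 0.43 (adjusted p = 0.00796). *Krt23* ran from −0.635 over −0.258 to 0.973 in KO cells, against 3.66, 3.44, 0.655, 1.51 and 3.98 in WT cells, and fell by 2.66 ± 0.51 (adjusted p = 0.0018). The WT arrays of run 7 were all above 3 while WT replicate 3 lay among the KO values, and the difference within run 8 was −1.09 (adjusted p = 0.47). *Krt4*, a keratin of internal stratified epithelia, fell by 1.25 ± 0.35 (adjusted p = 0.0436). *Krt17*, which wounding and hyperproliferation induce, differed by −1.99 ± 0.90 and was not called (adjusted p = 0.266).

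Basal layer genes held 1 higher call among 18, with a median of 0.365. *Itga6*, the integrin subunit that anchors basal cells to the basement membrane, ran from 1.74 over 2.77 to 3.44 in KO cells, against 1.08, 1.69, 1.96, 1.55 and 1.43 in WT cells, and rose by 1.17 ± 0.33 (adjusted p = 0.0437). Only WT replicate 3 reached into the KO range. The *Itga6* call was lost with run as a random block (adjusted p = 0.192) and in run 8 alone (adjusted p = 0.44). *Col17a1*, the hemidesmosomal collagen, had 6.04 to 8.47 in KO cells (median 6.83), against 6.99, 8.68, 1.76, 2.26 and 7.32 in WT cells. Its difference of 1.56 ± 0.86 did not pass over all arrays (adjusted p = 0.39), while within run 8, where both WT arrays were low, it was 4.65 (adjusted p = 0.0113). Against the WT arrays of run 7 it was −0.46.

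Notch receptors and their ligands act between neighbouring cells and promote the exit of keratinocytes from the basal layer. Of 14 pathway genes 10 were positive, with a median of 0.325 and 1 call. *Notch1* itself ran from 1.96 over 2.48 to 2.65 in KO cells, against 0.82, 1.29, 0.566, 0.768 and 1.30 in WT cells. The groups were apart, the difference was 1.43 ± 0.32 (adjusted p = 0.00694), and it was 1.67 in run 8 alone (adjusted p = 0.0363). This direction was not particular to AG1478. Without inhibitor *Notch1* was 2.55 to 3.04 in KO ras cells, against 0.705 to 2.18 in WT ras cells. With PD153035 it was 2.02 to 2.43 against 0.611 to 1.27, and with erlotinib 2.00 to 4.22 against 1.44 to 2.04. The ligand *Jag1* differed by 1.26 ± 0.55 and the target *Hes1* by 0.89, and neither passed (adjusted p = 0.237 and 0.12). No test was made of whether Notch genes as a group stood apart from other genes.

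Wnt pathway genes split, with 2 higher and 2 lower calls among 20 and a median of 0.05. *Sostdc1*, a secreted antagonist of Wnt and BMP signals, ran from 2.39 over 2.73 to 3.33 in KO cells, against 0.122, 0.278, 0.159, −0.107 and −0.558 in WT cells. All 5 WT values lay near the reference pool and all 6 KO values well above it, and *Sostdc1* rose by 2.85 ± 0.62 (adjusted p = 0.00601; 0.0952 in run 8 alone, where the difference was 2.73). Without inhibitor *Sostdc1* was 2.19 to 4.71 in KO ras cells, against −0.844 to 1.02 in WT ras cells. With erlotinib it was 2.66 to 4.13 against 0.565 to 2.12, while with PD153035 the genotypes overlapped. *Dact2*, an intracellular antagonist, rose by 1.34 ± 0.34 (adjusted p = 0.0232). Both called ligands were lower. *Wnt7b* ran from 0.39 over 1.77 to 3.08 in KO cells, against 3.38, 3.88, 2.23, 3.598 and 4.73 in WT cells, and fell by 1.93 ± 0.43 (adjusted p = 0.00796). *Wnt7a* fell by 1.99 ± 0.53 (adjusted p = 0.0289). Neither ligand passed in run 8 alone, where *Wnt7b* differed by −1.31 (adjusted p = 0.281) and *Wnt7a* by −0.89 (adjusted p = 0.628), or with run as a random block (adjusted p = 0.0842 and 0.23).

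**Figure D2:**
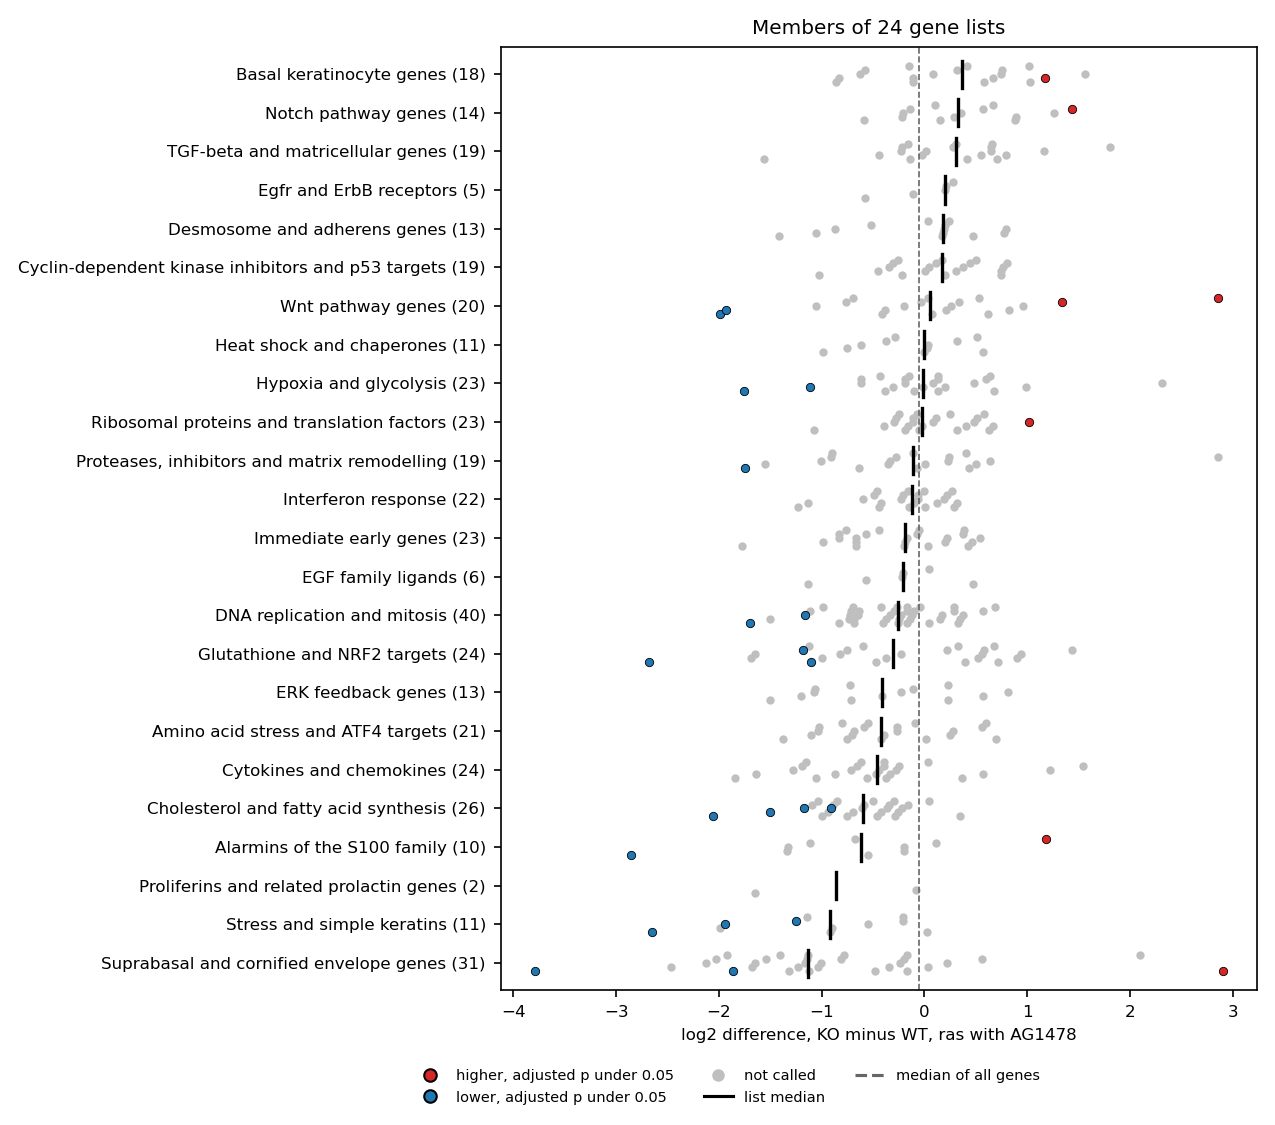
Log2 differences, KO minus WT in ras cells with AG1478, of the tested members of 24 gene lists, ordered by list median, with the number of members in brackets. Red and blue points are higher and lower calls at an adjusted p under 0.05, black bars are list medians and the dashed line is the median of all genes, −0.0562. The lowest medians are those of suprabasal genes, −1.13, and of stress and simple keratins, −0.919.

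Among secreted and surface proteins, *Psca*, a small antigen anchored in the membrane by glycosylphosphatidylinositol, ran from 0.617 over 1.37 to 1.84 in KO cells, against 5.08, 5.21, 2.87, 4.03 and 6.00 in WT cells. The lowest WT value, that of replicate 3, lay above the highest KO value, and *Psca* fell by 3.31 ± 0.49 (adjusted p = 0.000103). Within run 8 the difference was −2.22 (adjusted p = 0.0571). *Msln*, the anchored protein mesothelin, was named after its values were seen and fell by 2.48 ± 0.42 (adjusted p = 0.000429). *Plaur*, the urokinase receptor, fell by 1.75 ± 0.51 (adjusted p = 0.0499) as the single call among 19 genes of proteases, inhibitors and matrix remodelling, whose median was −0.114.

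*Serpinb3a* belongs to the intracellular serpins that inhibit serine and cysteine proteases. It ran from 3.65 over 4.23 to 5.76 in KO cells, against −0.217, 0.195, 0.935, 0.577 and 3.25 in WT cells, and rose by 3.45 ± 0.89 (adjusted p = 0.0232). WT replicate 5 came close to the KO range and the other WT arrays did not. Its close relative *Serpinb3c* rose by 2.64 ± 0.67 (adjusted p = 0.0205), and *Serpina3f*, a secreted serpin, by 2.45 ± 0.69 (adjusted p = 0.0427). A second *Serpinb3a* probe gave 0.541. *Serpina11* fell by 3.19 ± 0.53 (adjusted p = 0.000387), and so did the secreted proteases *Prss22*, by 2.98 ± 0.72 (adjusted p = 0.0135), and *Klk1b26*, by 2.88 ± 0.66 (adjusted p = 0.00942). *Klk1b26* ratios were −4.05 to −1.13 in KO cells, against −0.411 to 0.369 in WT cells. In WT ras cells under the other treatments they reached lower. They were −2.91 to 0.06 without inhibitor, −4.81 to −0.756 with erlotinib and −4.16 to −0.897 with PD153035. Serpin, kallikrein, late cornified envelope and glutathione transferase genes have near copies in the mouse, and without probe sequences in the files the gene behind such a signal is uncertain.

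Most proteins of the S100 family bind calcium, and stressed keratinocytes make some of them as alarmins. Of 10 family members, 1 was called higher and 1 lower, and the median was −0.614. *S100a7a*, the mouse relative of psoriasin, ran from 0.072 over 0.484 to 0.947 in KO cells, against 4.19, 4.52, 0.407, 3.39 and 4.13 in WT cells, and fell by 2.85 ± 0.56 (adjusted p = 0.00197). WT replicate 3 alone lay within the KO range. *S100a14*, at −1.34 ± 1.05, was not called (adjusted p = 0.575). *S100a10*, the partner of annexin A2, rose by 1.18 ± 0.32 (adjusted p = 0.0306). Of 24 cytokines and chemokines none was called, with a median of −0.46 over all arrays, −1.02 against the WT arrays of run 7 and 0.365 against those of run 8. *Cxcl5* had the largest difference, −1.84 ± 1.07 (adjusted p = 0.419), and *Il1f6*, an interleukin of the IL-36 family, gave −1.64 ± 0.60 (adjusted p = 0.143).

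Of 26 genes of cholesterol and fatty acid synthesis, 24 differences were negative, the median was −0.598, and 4 members fell while none rose. *Mvd*, which makes isopentenyl diphosphate in the mevalonate pathway, ran from −0.008 over 0.512 to 1.55 in KO cells, against 1.54, 2.35, 1.87, 1.99 and 2.72 in WT cells, and fell by 1.499 ± 0.29 (adjusted p = 0.00189). A single KO array touched the lowest WT value. *Hsd17b7*, a reductase of late cholesterol synthesis, ran from 0.108 over 0.436 to 1.05 in KO cells, against 2.89, 3.18, 0.218, 2.85 and 3.79 in WT cells. WT replicate 3 lay among the KO values and the other WT arrays were far above, and *Hsd17b7* fell by 2.06 ± 0.42 (adjusted p = 0.00283).

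*Stard4*, which carries cholesterol between membranes, fell by 1.17 ± 0.31 (adjusted p = 0.0295), but a second probe gave 0.165. *Fasn*, the fatty acid synthase, ran from −0.799 over −0.638 to −0.319 in KO cells, against 0.826, 0.443, −0.142, −0.247 and 0.48 in WT cells. Its groups did not overlap, and it fell by 0.91 ± 0.26 (adjusted p = 0.0437). The list median was negative in each of 4 further views, and the number of calls moved. These views reuse the same arrays, so the kept sign was largely fixed in advance and is no separate support. With run as a random block the list median was −0.459. Of the 4 calls only *Mvd* passed there (adjusted p = 0.0193), against 0.0613 for *Hsd17b7*, 0.166 for *Stard4* and 0.216 for *Fasn*. The median was −0.508 without KO replicates 3 and 4 (2 calls), −0.389 in run 8 alone (no call among 25) and −0.715 without WT replicate 3 (6 calls). In ras cells with PD153035 the same list had a KO minus WT median of −0.929 with 10 lower calls, with erlotinib −0.441 with none, and without inhibitor −0.441 with 1.

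Promoters of the 3 called sterol and lipid genes with an entry in RefSeq are shown because these genes moved together and their regulator SREBP is known to act beside NF-Y, which binds CCAAT. Each runs from 250 bases before to 50 after the gene's start (RefSeq, build GRCm38.p6, 5′ to 3′ on the gene's strand), and capitals mark CCAAT or its reverse complement ATTGG.
Mvd, chr8:122443373-122443672, minus strand: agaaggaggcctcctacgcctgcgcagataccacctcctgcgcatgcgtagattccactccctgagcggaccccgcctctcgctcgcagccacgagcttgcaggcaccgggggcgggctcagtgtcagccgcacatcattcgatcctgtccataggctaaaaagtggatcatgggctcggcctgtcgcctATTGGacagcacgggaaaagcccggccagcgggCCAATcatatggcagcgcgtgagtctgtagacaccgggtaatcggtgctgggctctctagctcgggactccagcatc
Hsd17b7, chr1:169969156-169969455, minus strand: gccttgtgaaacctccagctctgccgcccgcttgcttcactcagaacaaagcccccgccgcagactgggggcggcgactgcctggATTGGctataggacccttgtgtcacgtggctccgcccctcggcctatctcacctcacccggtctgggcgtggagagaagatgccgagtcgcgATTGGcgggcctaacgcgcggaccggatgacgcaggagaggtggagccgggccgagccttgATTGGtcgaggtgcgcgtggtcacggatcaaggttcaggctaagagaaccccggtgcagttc
Fasn, chr11:120824498-120824797, minus strand: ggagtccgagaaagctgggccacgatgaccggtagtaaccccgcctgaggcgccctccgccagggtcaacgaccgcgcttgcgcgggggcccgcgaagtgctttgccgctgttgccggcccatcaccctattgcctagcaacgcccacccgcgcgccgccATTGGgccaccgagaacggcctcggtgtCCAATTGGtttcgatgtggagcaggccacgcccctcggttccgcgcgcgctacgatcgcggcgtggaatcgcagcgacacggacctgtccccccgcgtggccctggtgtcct
*Mvd* has 2 matches, the nearer 27 bases before the start, and *Hsd17b7* has 3, the nearest 12 bases before it. *Fasn* has 3, of which those at 62 and 59 bases overlap. Of the 26 tested list members 20 had a promoter entry, and 18 of these held CCAAT on either strand in at least 1 promoter, where 41.1% of 27025 genes and 37.4% of 32851 promoters did. The sterol response motif TCACNCCAC, also searched on both strands, lay in 1 of the 20 (*Hmgcs1*), where 1.44% of genes and 1.24% of promoters held it. These are matches of letters in the window and carry no measurement of binding. The list was set by pathway, so the share with CCAAT describes the list and not the difference between genotypes. *Mvk* (0.04) and *Nsdhl* (0.348), the 2 members that were not lower, held 5 and 4 matches. *Acaca* (−0.343) and *Elovl6* (−0.30), which were lower, held none. Whether the motif goes with the difference was not tested.

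Detoxification genes of the NRF2 response held 3 lower calls among 24, with a median of −0.304 and 11 positive. *Hmox1*, heme oxygenase, ran from −0.289 over −0.007 to 2.07 in KO cells, against 2.55, 2.72, 3.38, 3.78 and 3.11 in WT cells. The groups did not overlap, and *Hmox1* fell by 2.68 ± 0.71 (adjusted p = 0.0289), by 3.16 in run 8 alone (adjusted p = 0.0916). The glutathione transferase *Gsto1* fell by 1.19 ± 0.30 (adjusted p = 0.0232) and the sulfiredoxin *Srxn1* by 1.10 ± 0.28 (adjusted p = 0.0216). *Gsta3*, at −1.69 ± 0.64, was not called (adjusted p = 0.166). *Gstm7*, outside the list, fell by 2.85 ± 0.66 (adjusted p = 0.0102), with every KO value below every WT value. Its ratios were −4.13 to −2.23 in KO cells, against −1.60 to 0.741 in WT cells. WT ras cells under the other treatments reached lower. *Gstm7* was −3.57 to 0.734 there without inhibitor, −3.08 to −0.559 with erlotinib and −2.59 to −0.75 with PD153035. In run 8 alone the list had a median of 0.159 and no call.

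Of 40 genes of DNA replication and mitosis 30 were negative, with a median of −0.26 and 2 lower calls. *Ccne1*, the cyclin that drives entry into S phase, fell by 1.69 ± 0.47 (adjusted p = 0.0364), and the centromeric histone *Cenpa* fell by 1.16 ± 0.33 (adjusted p = 0.0436). A second probe of each gave 0.0406 and 0.0699. *Rrm2*, the ribonucleotide reductase subunit, had −1.51 ± 0.61 and was not called (adjusted p = 0.198). Neither call remained without KO replicates 3 and 4 or in run 8 alone. Of 23 hypoxia and glycolysis genes 2 fell, while 11 differences were positive and the median was −0.0118. The largest difference of the list was that of *Pfkp*, 2.32 ± 0.76, which was not called (adjusted p = 0.0922 by limma). *Ndrg1*, which hypoxia and differentiation induce, ran from −2.57 over −1.51 to −0.896 in KO cells, against 0.063, 0.032, 0.184, 0.139 and 0.26 in WT cells, and fell by 1.76 ± 0.35 (adjusted p = 0.00211). The 5 WT values lay within a narrow band above every KO value, and the difference was −1.90 in run 8 alone (adjusted p = 0.0316). *Pfkfb3*, a regulator of glycolysis, fell by 1.12 ± 0.32 (adjusted p = 0.047).

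The remaining lists held few or no calls. The ribosomal protein *Rps3* rose by 1.01 ± 0.26 (adjusted p = 0.0216) as 1 call of 23 in its list, whose median was −0.03. No member was called among 19 TGF-beta and matricellular genes (median 0.305), 13 desmosome and adherens genes (0.177), 19 cyclin-dependent kinase inhibitors and p53 targets (0.171), 22 interferon response genes (−0.126), 21 amino acid stress and ATF4 targets (−0.421), 11 chaperones (−0.00134) and 2 proliferin-related genes (−0.864). The desmosome median was 0.586 against the WT arrays of run 8 and −0.226 against those of run 7.

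**Figure D3:**
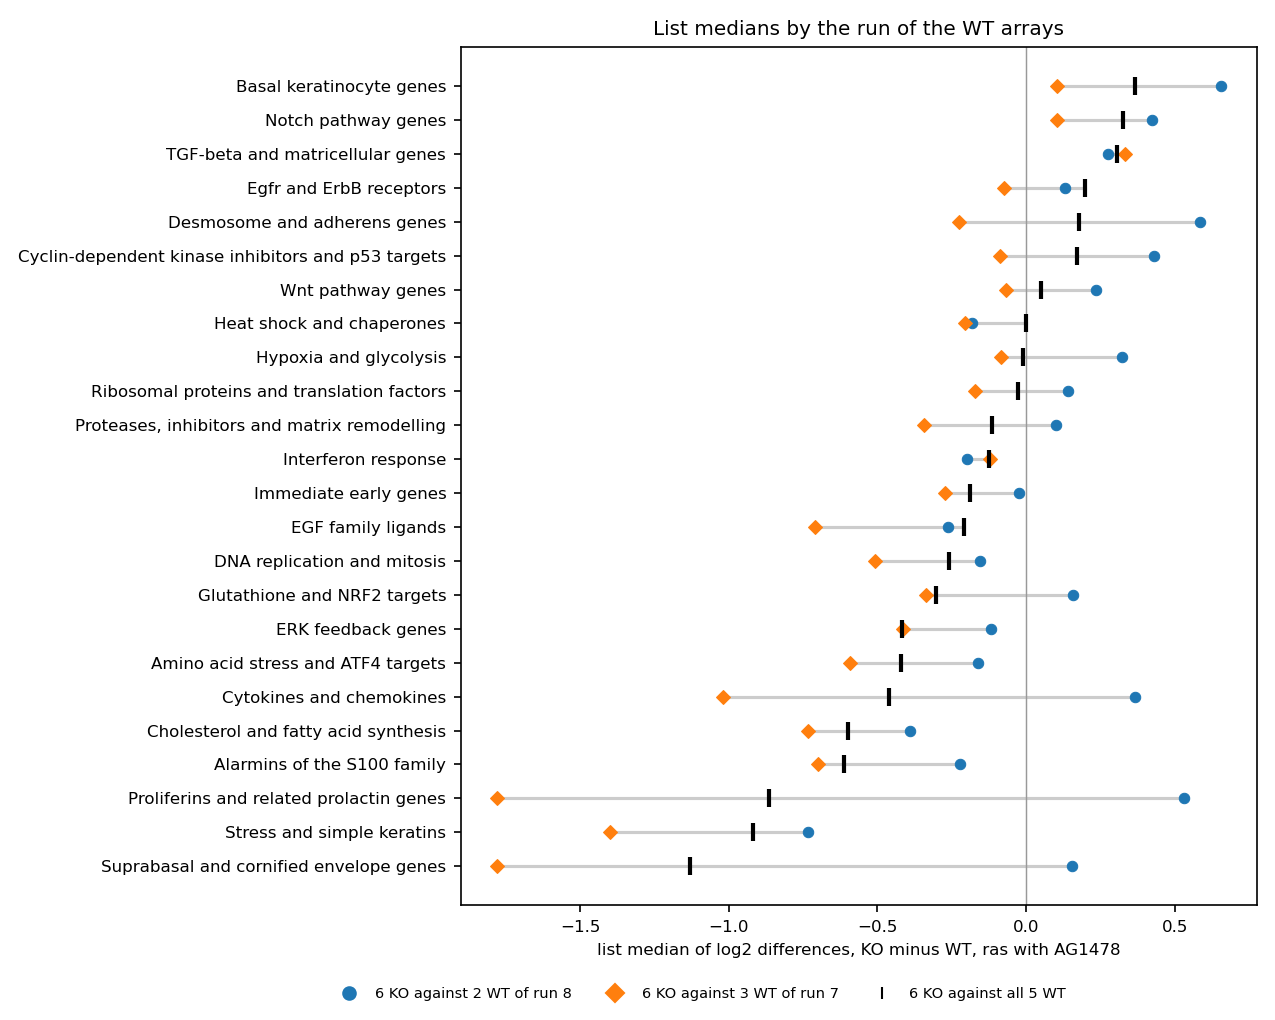
Median log2 difference of each of 24 gene lists, KO minus WT in ras cells with AG1478, when the 6 KO arrays are set against the 2 WT arrays of run 8 (blue circles), the 3 WT arrays of run 7 (orange diamonds) or all 5 WT arrays (black bars). The suprabasal median is 0.153 in run 8 and −1.78 against run 7, whereas the sterol and lipid median is below 0 in each. All 3 comparisons use the same 6 KO arrays, so they are not separate from each other.

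Several of the largest single differences belong to none of the lists. Lower in KO cells without overlap were *Vps37d*, an ESCRT-I subunit, by 2.74 ± 0.53 (adjusted p = 0.00186), the homeobox gene *Dlx1*, by 3.10 ± 0.69 (adjusted p = 0.00728), and *Mrtfa*, the actin-regulated coactivator of SRF, by 2.95 ± 0.74 (adjusted p = 0.0202). *Dlx1* also passed in run 8 alone. It had 2.03 to 2.98 in KO cells (median 2.47), against 3.87, 6.07, 5.33, 6.48 and 5.96 in WT cells, and its difference within run 8 was −3.40 (adjusted p = 0.0474). *Hsd11b1*, which regenerates active glucocorticoid, fell by 2.76 ± 0.68 (adjusted p = 0.0174), while a second probe gave 0.581. *Nyap2*, measured on 4 KO and 4 WT arrays, fell by 3.31 ± 0.50 (adjusted p = 0.000158), and *Lrrc6*, measured on 4 WT arrays, by 3.16 ± 0.91 (adjusted p = 0.0496). Neither could be tested in run 8 alone. *Lrrc6* ratios in WT ras cells were −2.52 to 0.459 with AG1478 and reached lower under the other treatments. They were −5.17 to −0.394 without inhibitor, −4.77 to −2.09 with erlotinib and −5.22 to −2.57 with PD153035.

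Higher in KO cells without overlap was *Bzw2*, a regulator of translation initiation, with 2.49 to 3.24 (median 2.85), against 1.56, 1.54, 1.11, 0.113 and 1.37 in WT cells. It rose by 1.70 ± 0.28 (adjusted p = 0.000316), and by 2.18 in run 8 alone (adjusted p = 0.00122). *Ovch2* had 1.08 to 2.75 in KO cells (median 1.43), against −0.317, −0.179, −0.192, 0.055 and 0.351 in WT cells, and rose by 1.72 ± 0.29 (adjusted p = 0.000387). *Gpc4*, a glypican of the cell surface, rose by 1.73 ± 0.38 (adjusted p = 0.00645), and the regulatory subunit of protein kinase A *Prkar1a* by 1.55 ± 0.37 (adjusted p = 0.0131). *Gpc4* was also higher in KO ras cells without inhibitor, at 1.16 to 1.92, against −0.349 to 0.706 in WT ras cells. With erlotinib it was 0.983 to 2.11 against −0.427 to 0.315, while with PD153035 the genotypes overlapped. The other genes of this set, *Igkv12-67*, *Mrpl27*, *Nup210l*, *Rbm10*, *Phrf1*, *Filip1l* and *Clec16a*, rose by 1.91, 1.71, 1.598, 1.53, 1.53, 1.49 and 1.47 in that order.

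Markers of other cells were measured as mean ratios over each list, and in a culture fewer cells of a type cannot be told apart from less RNA per cell. The 19 keratinocyte genes averaged 3.55 to 4.68 over KO arrays, against 2.56 to 4.82 over WT arrays, with 0 calls. The 20 fibroblast genes averaged −1.41 to −0.836 in KO and −1.95 to −0.284 in WT, with 0 calls. The 10 endothelial genes averaged −2.18 to −1.43 in KO and −2.09 to −0.348 in WT, also with 0. The median fibroblast difference was 0.149. In run 8 alone it was −0.438, with 16 of 20 negative and 1 lower call, and against the WT arrays of run 7 it was 0.495. The 11 melanocyte genes averaged 1.29 to 2.12 in KO, against 0.273 to 2.06 in WT. Of their differences 7 were positive and 4 negative, with a median of 0.41. That median was 0.612 in run 8 alone and −0.0772 against the WT arrays of run 7. *Ednrb* rose by 1.22 ± 0.34 (adjusted p = 0.0403), and *Tyrp1*, at 3.18, was not called (adjusted p = 0.136). The 13 leukocyte and Langerhans cell genes averaged −1.87 to −1.32 in KO, against −2.24 to −0.701 in WT. Their differences were split, 7 positive and 6 negative, with a median of 0.0377. *Cd68*, a lysosomal protein of macrophages, fell by 1.66 ± 0.26 (adjusted p = 0.000234), the 1 call in that list and in the list of 18 reference pool genes (median −0.113). Of 27 probes annotated to the retroviral gene gag, 1 was lower, and their mean was 0.529 to 1.08 in KO cells, against 0.831 to 1.48 in WT cells. Both WT arrays of run 8, at 1.37 and 1.48, lay above every KO array. Of the 27 differences 20 were negative, with a median of −0.257. In run 8 alone 21 were negative (median −0.586), and against the WT arrays of run 7, 18 were (median −0.192). The part of other cells or of virus dose in the differences was not tested.

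Whether the genotype difference with AG1478 differed from that under the other treatments was tested as a difference of differences, with no sample shared between the 2 sides. Against ras cells without inhibitor, 243 of 27679 probes passed (0.878%), 146 higher (0.527%) and 97 lower (0.35%). All AG1478 arrays lie in other runs than those without inhibitor, and with run as a random block 1 probe passed, that of *Egr1*. Without inhibitor the KO arrays lie in runs 3, 5 and 6 and the WT arrays in runs 1 and 2. Genotype and run therefore cannot be told apart there, for *Egr1*, *Klk6*, *Psca*, *Notch1*, *Sostdc1* and *Gpc4* alike. In ras cells without inhibitor *Egr1* ratios were −1.23, −0.248, −0.939, −0.311 and −0.638 in KO replicates 1 to 5, against 2.20, 2.81, 2.10, 3.30 and 2.75 in WT replicates 1 to 5. There *Egr1* fell by 3.30 ± 0.29 (adjusted p = 1.57e-11), while with AG1478 both groups lay near 0. The difference of differences was 3.23 ± 0.40 (adjusted p = 2.39e-06, 95% interval 2.42 to 4.04; adjusted p = 0.00075 with run as a random block), and it passed in each of the 21 fits without 1 sample. With erlotinib the KO minus WT difference of *Egr1* was 0.90 ± 0.31 (adjusted p = 0.131) and with PD153035 it was −0.13 ± 0.29 (adjusted p = 0.969). The value with AG1478 differed from those by −0.98 (95% interval −1.81 to −0.141, adjusted p = 0.337) and by 0.06 (95% interval −0.75 to 0.866, adjusted p = 0.983).

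**Figure D4:**
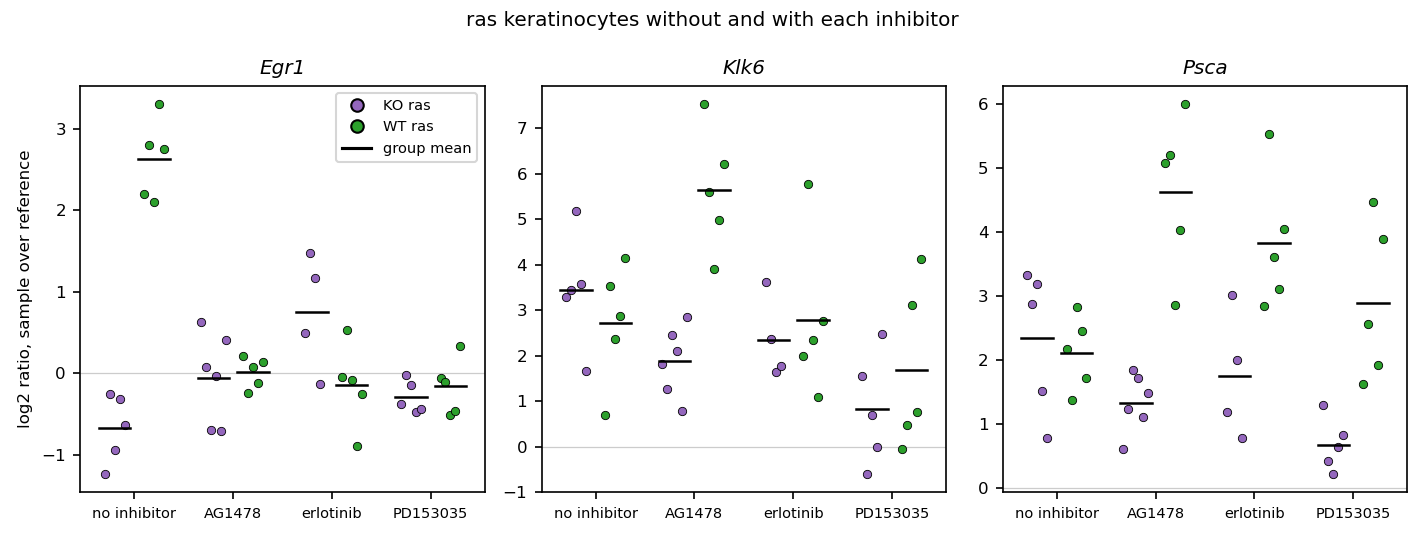
Log2 ratio of sample over reference of *Egr1*, *Klk6* and *Psca* in KO ras cells (purple, left of each pair) and WT ras cells (green, right) without inhibitor and with AG1478, erlotinib or PD153035. Points are samples and bars are group means. *Egr1* was high only in the WT cells without inhibitor (2.10 to 3.30), among the 8 groups plotted.

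*Klk6* and *Psca* differed between the genotypes with AG1478 and not detectably without inhibitor. The lower *Psca* in KO cells was not particular to AG1478. With PD153035 *Psca* was 0.226 to 1.30 in KO ras cells, against 1.63 to 4.48 in WT ras cells, without overlap. With erlotinib it was 0.784 to 3.01 against 2.85 to 5.54. *Klk6* values of the genotypes overlapped with both of these inhibitors. *Klk6* ran from 1.68 to 5.19 in KO cells without inhibitor, against 0.703 to 4.16 in WT cells, a KO minus WT difference of 0.71 ± 0.85, and the value with AG1478 differed from it by −4.50 ± 1.18 (adjusted p = 0.0458). *Psca* differed by −3.54 (adjusted p = 0.0145). With run as a random block the *Klk6* value was −4.10 and did not pass (adjusted p = 0.455). Other large lower values here were those of *Morn3* (−4.78), *Slco6b1* (−4.47), *Tmsb15a* (−4.35) and *Nyap2* (−4.04), and *Ddx5* (3.30), *Pabpc1* (3.04), *H2ac19* (2.94) and *Xist* (2.87) were the largest higher ones beside *Egr1*. None of these passed with run as a random block (adjusted p from 0.183 for *Nyap2*).

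AG1478, PD153035 and erlotinib are all anilinoquinazolines that bind the ATP site of the kinase, and they were used at the same dose and time. All PD153035 arrays of ras cells lie in run 8. Of 27719 probes 44 passed between the 2 genotype differences (0.159%), 24 higher (0.0866%) and 20 lower (0.0722%), and 17 passed when the WT arrays of run 7 were left out. *Tm4sf1*, a membrane protein of the tetraspanin-like L6 family, had the largest value on the higher side at 3.40 ± 0.58 (adjusted p = 0.00112). Its KO minus WT difference was 0.40 ± 0.40 with AG1478 and −3.00 with PD153035. It was followed by *Muc15* (3.04), *Fxyd3* (2.27), *Ovch2* (1.79) and *Adam10* (1.73) on the higher side and by *Nyap2* (−3.45), *Afm* (−3.11), *Atp8b4* (−2.70), *Lcat* (−2.54) and *Acot2* (−2.51) on the lower side. *Tm4sf1* passed in each of 21 fits without 1 sample and each of 8 other alternatives, whereas *Ovch2* passed in 6 of 21 and 2 of 8 and *Adam10* in 7 of 21 and 5 of 8. *Afm* passed in 20 of 21 and 3 of 7, *Nyap2* in 20 of 21 and 3 of 6, and *Atp8b4* in 20 of 21 and 4 of 8. The erlotinib arrays of ras cells lie in runs 5 and 6 and the AG1478 arrays in runs 7 and 8, so inhibitor and run cannot be told apart there. With erlotinib limma called none of 27465 probes (0%), while 3319 had an unadjusted p under 0.05 and the smallest adjusted p was 0.0979. The 95% interval of that difference reached a median of 1.07 to each side, so differences of that size in single genes could not be told from 0.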

How the data were processed

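Total RNA from each culture was hybridised with universal mouse reference RNA on 2-colour arrays. The values are log2 ratios deposited by the authors, 1 per probe and array; the log base, the background correction and the normalization are not given in the sources used here. The direction of each array was set by the sign of its correlation with the median of the forward arrays. Of 28049 probes, 20925 carried 1 gene symbol (14539 genes), 159 several and 6965 none.

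One model was fitted with limma 3.58.1 in R 4.3.3 to 62 samples in 13 groups with a dye term, on probes with a value on at least 60% of the arrays of each group compared, and p-values were adjusted over all probes by Benjamini-Hochberg with a threshold of 0.05. Differences are KO minus WT. The 11 arrays held 24860 to 27985 values each, and their number limits the precision: the 95% interval of a difference reached a median of 0.718 to each side. On simulated data for this comparison (19386 probes), 16% of differences of log2 size 1 and 84% of size 2 were recovered, with 5.66% false calls. The simulated noise was independent between arrays, without differences between runs and without an array that stands apart. These rates therefore need not hold for the calls on the real arrays.

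Each gene was read by the probe with most values. Named genes are the 15 largest non-overlapping called differences in each direction, up to 4 called members per list, the 2 largest members of 13 lists described, *Egfr*, *Erbb2*, *Erbb3* and *Egr1*, and the 5 largest called differences of differences in each direction. Members, lists and tests were chosen with earlier results of these data known. Alternatives changed the sign rule, dye term, samples, run, replicate block, scaling, filter and weights. The comparison with WT arrays of run 7 alone, list counts by run, PD153035 within run 8 and the replicate block over 4 groups were added after the data were seen. Figures were drawn with matplotlib 3.10.9.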

Additional observations from a re-analysis of the deposited data

Results flagged for a closer look

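In 186 groups of 5 or 6 arrays, some with missing values, 15 held 1 array far from the others, 4 in KO and 11 in WT. Chance marks about 1 in 20 independent groups. The groups here share the same arrays and hold genes chosen from these data, so that rate is no yardstick for them. Of these 15, 7 were WT replicate 3 lying lowest: *S100a7a* at 0.407, *Hsd17b7* at 0.218, *Lce1e* at 2.30, *Fxyd3* at 0.944, *Lce1m* at −0.962, *Rrm2* at −0.549 and *S100a14* at 1.68. Among KO arrays, *Filip1l* was 2.76 and *Serpinb3a* 5.76 in replicate 6, *Morn3* was −1.02 in replicate 1, each the highest, and *Ccne1* was −1.01 in replicate 5, the lowest. Among the other WT arrays, *Lcat* was 1.05 in replicate 2, *Dact2* 1.45 and *Tgfa* 3.98 in replicate 5, each the highest, and *Fos* was −1.58 in replicate 4, the lowest.

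The KO minus WT difference with AG1478 differed from that without inhibitor, by limma's test of the difference, for *Egr1* (3.23), *Ddx5* (3.30), *Pabpc1* (3.04), *H2ac19* (2.94), *Xist* (2.87), *Phrf1* (2.45) and *Rbm10* (1.77), and, on the lower side, for *Morn3* (−4.78), *Klk6* (−4.50), *Slco6b1* (−4.47), *Tmsb15a* (−4.35), *Nyap2* (−4.04) and *Psca* (−3.54). It differed from that with PD153035 for *Tm4sf1* (3.40), *Muc15* (3.04), *Fxyd3* (2.27), *Ovch2* (1.79) and *Adam10* (1.73), and, on the lower side, for *Nyap2* (−3.45), *Afm* (−3.11), *Atp8b4* (−2.70), *Lcat* (−2.54) and *Acot2* (−2.51). Of these, *Ovch2* passed in 6 and *Adam10* in 7 of 21 fits without 1 sample, and *Ovch2* did not pass with run as a random block (adjusted p = 0.103). The AG1478 arrays and those without inhibitor share no run, so run and treatment cannot be told apart there, and only *Egr1* passed with run as a random block.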

How the results depend on the processing

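The 612 calls became 291 without KO replicates 3 and 4, 1690 with signs and dye order by label, 236 with only the 2 groups compared, 295 with run as a fixed block, 385 in run 8 alone, 279 with run as a random block, 72 with the replicate block, 1062 after quantile normalization, 1339 with array weights and 1188 against the WT arrays of run 7; leaving out 1 sample gave 341 (without KO replicate 5) to 896 (without WT replicate 3), with 343 and 348 without WT replicates 1 and 2. The 243 calls against no inhibitor became 554 by label, 62 without a dye term, 1 with run as a random block, 420 after quantile normalization and 2 with the replicate block, and ranged over 18 (without KO ras replicate 2) to 706 (without WT AG1478 replicate 3) when 1 sample was left out, 15 of 21 such fits moving the count by over 1.5 times. The 0 calls against erlotinib became 1 without KO replicates 3 and 4, 243 by label, 1 with run as a random block and 1 with the replicate block, and ranged from 0 to 80 (without WT erlotinib replicate 2). The 44 calls against PD153035 became 95 after quantile normalization and 17 in run 8 alone, and ranged from 23 to 53. Replicate numbers showed no pairing of the samples: 5 same-number pairs correlated at −0.191 to 0.0579, 0 of them over 0.1. With 5 pairs, a litter or preparation shared by samples of the same number could be missed. Signs turned by label for *Egr1* (0.17), *Fxyd3* (−1.25, and −0.35 against PD153035), *Itga6* (−0.26), *Erbb2* (−0.0752), *Col17a1* (−2.85), *Muc15* (−0.53), *Morn3* (0.60), *Jag1* (−0.91), *Gsta3* (0.18), *Adam10* (−0.0781), *Erbb3* (−0.28), *Dsg1a* (−0.43), *Serpina3f* (−0.19), *S100a10* (−1.01), *Filip1l* (−0.0756) and *Bzw2* (−0.22). They turned in run 8 alone for *Hbegf* (0.47), *Pabpc1* (−0.82), *Egfr* (0.0111) and *Il1f6* (0.0514), and with run as a fixed block for *Hbegf* (0.46), *Pabpc1* (−0.99), *Rrm2* (0.0506), *Il1f6* (0.0674), *Ddx5* (−0.0593) and *Lce1m* (0.0258). *Pabpc1* turned with run as a random block (−0.0366), *Erbb2* (−0.0889) and *Col17a1* (−0.46) against run 7, and *Egr1*, whose value lies near 0, with forward arrays only (0.0275) and without KO replicates 3 and 4 (0.0779); leaving out 1 sample gave it −0.204 (KO replicate 1) to 0.0636 (KO replicate 5), and 0.0522 without KO replicate 3. Fits with fewer samples have less precision; for the other changes the cause was not tested.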

Other observations

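*Xist*, the RNA that coats the inactive X chromosome of female cells, varied within the WT group. Its ratios ran from 0 over a median of 0.613 to 1.14 in KO cells, against 0.455, −3.20, −0.205, −0.224 and −3.55 in WT replicates 1 to 5. WT replicates 2 and 5 lay far below the other 9 arrays, and the labels do not give the sex of the animals.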
